A study of Macaca fascicularis with 64 samples.

Results

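The genes described here were 10 zinc transporter genes that islet cells express, 5 of the SLC30 (ZnT) family (SLC30A1, SLC30A5, SLC30A7, SLC30A8 and SLC30A9) and 5 of the SLC39 (ZIP) family (SLC39A1, SLC39A6, SLC39A7, SLC39A10 and SLC39A14). They were taken by name from the 21041 macaque genes of the series, and all 10 were present in the files. Their transcripts were compared between 4 endocrine cell types and between age groups in islets of 16 cynomolgus monkeys (Macaca fascicularis), 8 young and 8 old, with 4 females and 4 males at each age. No monkey carried a treatment or a genetic change. Islets near the pancreatic tail were picked by hand and dissociated, and single cells were taken by pipette and sequenced with molecular identifiers (UMIs), in 64 libraries, 4 per monkey. By the study's methods the tissues were collected over 16 days, so that monkey and collection day cannot be told apart. A cell was called an α-, β-, δ- or PP-cell when GCG, INS, SST or PPY, respectively, had the highest UMI count of these 4 hormone genes.

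Zinc enters the cytosol through ZIP proteins and leaves it through ZnT proteins, either to the outside or into organelles. In β-cells, SLC30A8 (ZnT8) loads zinc into insulin granules, where insulin is stored as a zinc-bound hexamer, and the zinc is released together with the hormone. Of the 10 genes, only SLC30A8 is known mainly as a granule transporter. SLC30A1 exports zinc across the plasma membrane, SLC30A5 and SLC30A7 serve the Golgi and the early secretory pathway, and SLC30A9 acts in mitochondria. SLC39A1, SLC39A6, SLC39A10 and SLC39A14 import zinc at the plasma membrane, SLC39A14 also carries iron and manganese, and SLC39A7 releases zinc from the endoplasmic reticulum and the Golgi.

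Of 6141 cells in the files, 5908 had more than 800 genes and more than 10000 UMIs, among them 4503 α-cells, 1219 β-cells, 112 δ-cells and 74 PP-cells. This UMI threshold counted spike-ins, and 45 retained cells had fewer than 10000 UMIs of macaque genes. Between 338 and 381 cells per monkey were retained, with 20719761 to 34053080 UMIs. Cells of 1 type and 1 monkey were pooled into a sum of UMIs where there were at least 5, which gave α- and β-cell sums from 16 monkeys each, δ-cell sums from 11 and PP-cell sums from 6. A sum held 178 to 362 α-cells, 11 to 194 β-cells, 5 to 14 δ-cells or 5 to 33 PP-cells, so levels in both rare types rested on far fewer molecules. Levels of single genes in these sums are counts per 1000000 UMIs (CPM) with TMM library sizes, taken from 1 fit over the 4 types. Summed markers and the values of single cells, pooled cells and libraries are CPM of the UMIs counted, without TMM. The summed level of the markers of each type was highest in that type, with a median of 65133 CPM for the 8 β-cell markers in β-cells against 6475.8 in α-cells. Each list included the hormone gene that set the type, so this order followed largely from the typing and is no separate check of it. GCG was nevertheless counted in every type, at a median of 26.5% of the α-cell level of the same monkey in δ-cells and 28.2% in β-cells. Markers of acinar cells stood apart in young female 2, which supplied 51 of the 56 cells with at least 4 acinar genes and 1000 CPM of them. Another 36 cells carried immune, stellate or endothelial markers at that level. Leaving out all of these cells changed no call for a zinc transporter gene.

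Differences between cell types were tested within monkeys by edgeR (a fit across 12899 genes with the monkey as a term, Benjamini-Hochberg adjustment, threshold 0.05). Between β- and α-cells 1 of the 10 genes passed, where 25.0% of all genes did. Between β- and δ-cells 5 of 10 passed, against 19.8% of all genes, and between β- and PP-cells 3 of 10 passed, against 17.2%. Between α- and δ-cells 4 of 10 passed, against 23.2%, and between α- and PP-cells 2 of 10, against 6.61%. Between δ- and PP-cells none passed in edgeR, where 10.3% of all genes did, although 1 gene had an unadjusted p under 0.05 and 1 passed in DESeq2. Each of the edgeR calls was for a higher level in the α- or β-cells than in the rare type, or in β- than in α-cells. The DESeq2 call was for SLC39A7, lower in δ- than in PP-cells. The 4 types shared 1 estimate of the spread, so the small sums of the rare types also entered the test of β- against α-cells. Among sums of at least 10 cells, which kept all α- and β-cell sums, SLC30A7, SLC30A9, SLC39A1 and SLC39A6 also passed between these types. In that setting 5135 of 16026 genes passed. What changed these calls was not tested.

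The direction of calls over all genes depended on the scaling in the comparisons with rare types. By edgeR 73.4% of the genes called between β- and δ-cells were higher in β-cells and by DESeq2 50.7%, while for α- against δ-cells the shares were 81.2% and 62.4%. They were 61.3% and 45.8% for β- against PP-cells and 73.0% and 57.5% for α- against PP-cells. The median log2 fold change of all genes was 0.35 for β- against δ-cells, 0.26 for β- against PP-cells, 0.47 for α- against δ-cells and 0.37 for α- against PP-cells, and DESeq2 moved these medians by −0.34, −0.29, −0.27 and −0.24. The medians of the 10 genes were 0.88, 1.04, 0.64 and 0.38 in the same order. For β- against α-cells the median of the 10 was 0.47 and that of all genes −0.11.

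**Figure D1:**
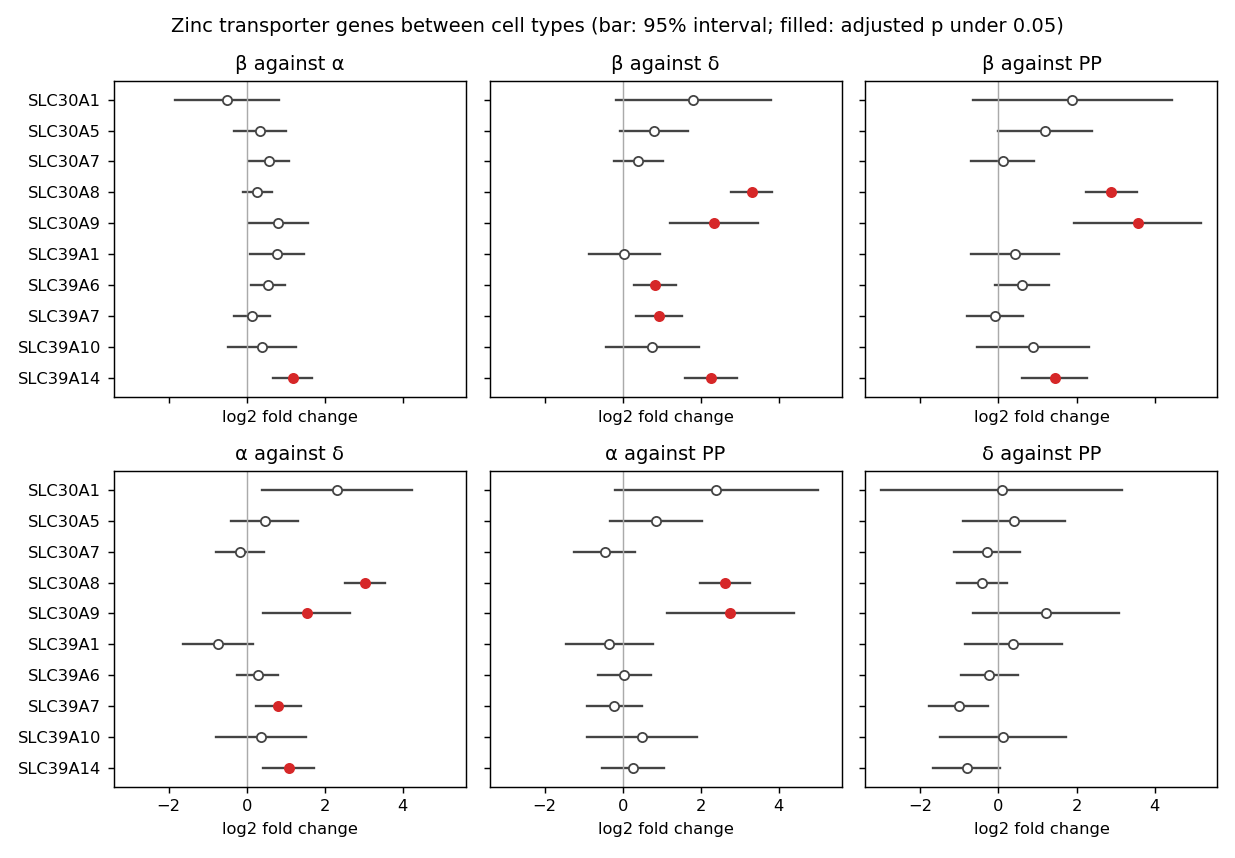
Log2 fold change (x axis) of the 10 zinc transporter genes (y axis) in the 6 comparisons between cell types, with 95% intervals as bars and filled points for an edgeR adjusted p under 0.05. SLC30A8 lies between 2.62 and 3.30 in the 4 panels that set α- or β-cells against δ- or PP-cells, and near 0 in the others.

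SLC30A8, the granule transporter, was abundant in α- and β-cells and low in δ- and PP-cells. In β-cells it had a mean of 539 ± 156 CPM (SD, n = 16), with a lowest value of 303 (young male 2), a median of 533 and a highest of 794 (young male 1). In α-cells the mean was 437 ± 76.1 CPM (SD, n = 16), from 302 (old female 2) through a median of 454 to 577 (old male 3). The ranges of α- and β-cells overlapped over most of their width. In δ-cells the mean was 54.9 ± 53.1 CPM (SD, n = 11), from 10.6 through a median of 41.8 to 203, and in PP-cells it was 81.9 ± 51.9 CPM (SD, n = 6), from 40.8 through 60.9 to 181. No δ- or PP-cell sum reached the lowest α- or β-cell sum.

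β-cells exceeded δ-cells in SLC30A8 by a log2 fold change of 3.30 ± 0.26 (SE, adjusted p = 1.0e-14) and PP-cells by 2.89 ± 0.32 (adjusted p = 1.4e-09). α-cells exceeded δ-cells by 3.04 ± 0.26 (adjusted p = 8.2e-14) and PP-cells by 2.62 ± 0.32 (adjusted p = 7.6e-08). In every monkey with both types the common type was higher, in 11 of 11 monkeys against the δ-cell sum and in 6 of 6 against the PP-cell sum. Relative to the median of all genes, the 4 log2 differences were 2.95, 2.63, 2.57 and 2.25. These 4 calls held under each of 8 other settings and without any single monkey.

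Between β- and α-cells the SLC30A8 difference did not pass the test. The log2 fold change was 0.27 ± 0.19 (SE, 95% interval −0.10 to 0.64, adjusted p = 0.32), and β-cells were higher in 12 of 16 monkeys. The median level in α-cells was 85.2% of that in β-cells of the same monkey, with a range from 52.8% to 136%. For comparison with transcripts that mark β-cells, INS in α-cells stood at 9.76% and IAPP, the islet amyloid peptide that β-cells secrete with insulin, at 1.56% of the β-cell level. Whether RNA of β-cells supplied part of the SLC30A8 counts in α-cells was not tested.

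The low SLC30A8 values in δ- and PP-cells lay below the share of GCG, near that of INS and above that of IAPP counted in these cells. In δ-cells SLC30A8 reached a median of 11.5% of the α-cell level and 9.46% of the β-cell level, while GCG reached 26.5% of the α-cell level, INS 8.42% and IAPP 2.41% of the β-cell level. In PP-cells SLC30A8 was at 17.8% of the α-cell and 13.7% of the β-cell level, GCG at 42.4% of the α-cell level, and INS at 18.4% and IAPP at 2.38% of the β-cell level. Whether RNA of other cells supplied the SLC30A8 counts in δ- and PP-cells was not tested.

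A single cell decided the highest δ-cell value. In old female 1, whose δ-cell sum of 203 CPM stood apart from 10.6 to 79.1 CPM in the other 10 monkeys, 137 of 138 SLC30A8 UMIs came from 1 of 7 cells, which had 384261 UMIs in all and nearly equal SST (7024) and INS (6774) counts. Without that monkey the δ-cell mean was 40.0 ± 21.0 CPM (SD, n = 10), and the log2 fold change of δ- against PP-cells was −0.94 ± 0.27 (SE, adjusted p = 0.018), against −0.42 ± 0.32 (adjusted p = 0.44) with it. The same difference passed when high-UMI cells (beyond percentile 95) were left out (−1.08, adjusted p = 0.0070) and with each cell thinned to 10000 UMIs (−1.24, adjusted p = 0.023), but was −0.74 with an adjusted p of 0.097 among cells with 1 clear hormone. The highest PP-cell value, 181 CPM in old male 4, came from 60 UMIs in 6 cells, and 27 of them lay in 1 cell whose counts of the highest and the next hormone were 6734 and 5165.

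**Figure D2:**
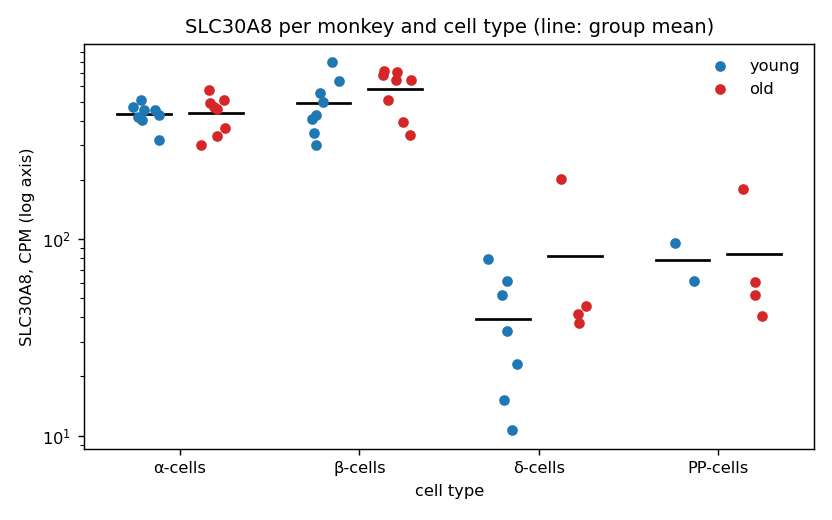
SLC30A8 level in CPM on a log axis (y) in each monkey by cell type (x), with young monkeys in blue, old monkeys in red and a black line at the mean of each group. The α- and β-cell sums all lie between 302 and 794 CPM, and the δ- and PP-cell sums between 10.6 and 203.

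Counted per cell, a SLC30A8 UMI was found in 96.6% of α-cells and 96.1% of β-cells, and in 67.0% of δ-cells and 86.5% of PP-cells, at median depths of 64894, 74425, 43776 and 45772.5 UMIs. After each cell was thinned to 10000 UMIs (which left out 39 α-cells and 6 β-cells), the shares were 85.5% (95% exact binomial interval 84.4 to 86.5) in α-cells, 88.0% (86.0 to 89.7) in β-cells, 30.4% (22.0 to 39.8) in δ-cells and 51.4% (39.4 to 63.1) in PP-cells. The intervals cover counting error only. Among the 36 cells with immune, stellate or endothelial markers, 80.6% had a UMI at a median depth of 64973.5 and 60.0% (42.1 to 76.1) of 35 after thinning. These cells also carried hormone RNA, with 32214 CPM of GCG, and 28 of them had been called α-cells. Their share is thus no measure of a background without expression. After thinning, the δ- and PP-cell shares lay below it, with overlapping intervals for PP-cells, and before thinning the PP-cell share lay above it. The δ- and PP-cell shares are read neither as expression nor as its absence, since the source of these counts was not tested.

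**Figure D3:**
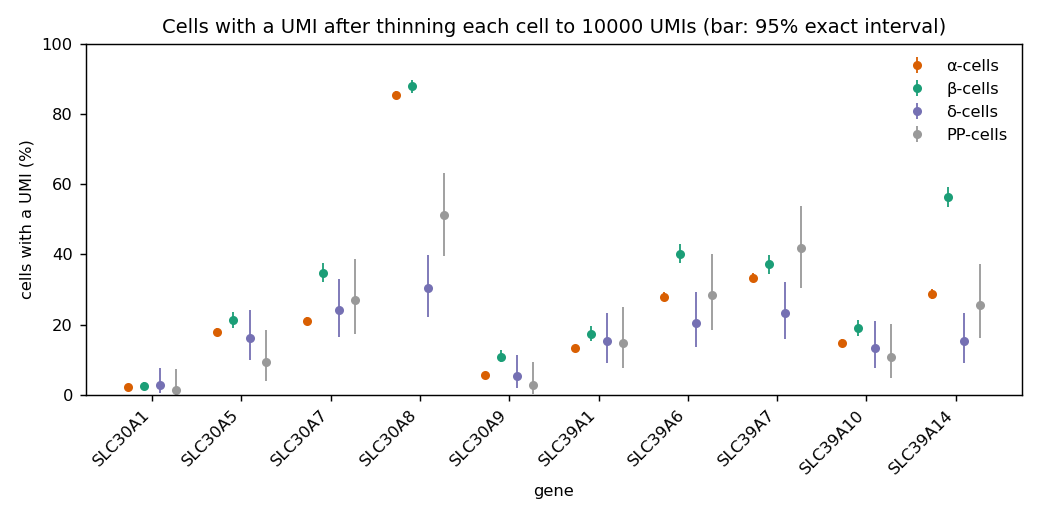
Percent of cells with at least 1 UMI (y) of each of the 10 genes (x) after every cell was thinned to 10000 UMIs, by cell type, with 95% exact binomial intervals as bars. SLC30A8 stands at 85.5% of α-cells and 88.0% of β-cells, and SLC39A14 is the other gene with β-cells above 50% (56.5%, against 28.7% of α-cells).

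SLC39A14, an importer of zinc, iron and manganese at the plasma membrane, was the 1 gene of the 10 that passed between β- and α-cells in the fit over sums of at least 5 cells. Its level was 132 ± 49.9 CPM (SD, n = 16) in β-cells, from 83.8 through a median of 117 to 253, and 56.2 ± 17.1 CPM (SD, n = 16) in α-cells, from 41.8 through 52.2 to 111. β-cells were higher in 16 of 16 monkeys, by between 1.59 and 3.18 times. The log2 fold change was 1.18 ± 0.25 (SE, adjusted p = 0.00018), and no single monkey decided it (1.16 to 1.25 when each was left out). With as few cells per monkey as there were δ-cells it was 0.50 and did not pass (adjusted p = 0.62). After thinning, 56.5% (53.6 to 59.3) of β-cells and 28.7% (27.3 to 30.0) of α-cells had a UMI.

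**Figure D4:**
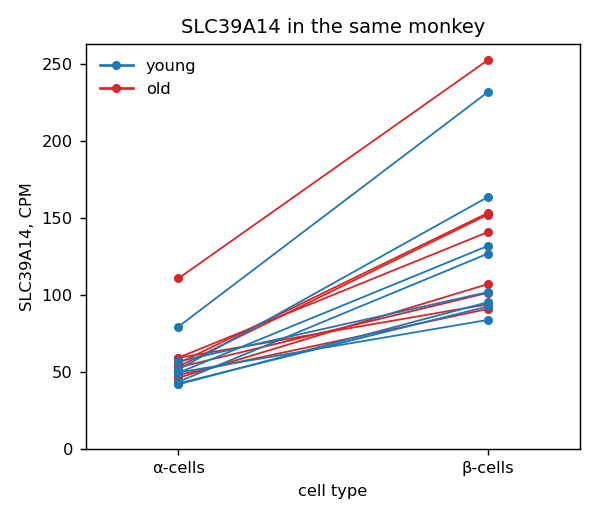
SLC39A14 level in CPM (y) in α- and β-cells (x), with a line joining the values of the same monkey, blue for young and red for old. All 16 lines rise, and old female 1 (111 and 253 CPM) and young male 3 (79.3 and 232 CPM) are highest in both types.

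In the rare types SLC39A14 was lower and more scattered, at 36.1 ± 42.0 CPM (SD, n = 11) in δ-cells and 50.2 ± 41.2 CPM (SD, n = 6) in PP-cells. β-cells exceeded δ-cells by 2.26 ± 0.33 on the log2 scale (SE, adjusted p = 8.4e-07), a call that held in every setting. They exceeded PP-cells by 1.44 ± 0.41 (adjusted p = 0.011), which did not pass with cells reduced to δ-cell numbers (0.99, adjusted p = 0.44). Among sums of at least 10 cells the difference was 0.55, but that setting kept PP-cells of old female 2 only. α-cells exceeded δ-cells by 1.07 ± 0.33 (adjusted p = 0.013), or 0.61 above the median of all genes, and this did not pass among sums of at least 10 cells (adjusted p = 0.054) or without the monkey as a term (adjusted p = 0.18). The order of the means was β, α, PP and δ, where α- and PP-cells (adjusted p = 0.75) and PP- and δ-cells (adjusted p = 0.23) did not differ beyond their spread. The highest δ-cell value, 154 CPM in young male 3, held 53 of its 59 UMIs in 1 of 14 cells.

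Over the sums, SLC30A9, the mitochondrial transporter, was higher in α- and β-cells than in either rare type. For δ-cells, however, the sums held only 25 of the 119 UMIs in all 112 cells, and 1 cell held 56 of the 119. Over all cells thinned to 10000 UMIs, the mean count was 0.214 in δ-cells, 0.106 in α-cells and 0.185 in β-cells. A UMI was found in 5.36%, 5.65% and 10.9% of these cells, respectively. β-cells averaged 21.5 ± 7.06 CPM (SD, n = 16), α-cells 12.1 ± 3.83 (n = 16), δ-cells 5.43 ± 7.06 (n = 11) and PP-cells 1.79 ± 1.19 (n = 6). β-cells exceeded δ-cells by 2.35 ± 0.56 (SE, adjusted p = 0.0017) and PP-cells by 3.57 ± 0.81 (adjusted p = 0.0013) on the log2 scale. All 6 PP-cell sums lay below every α- and β-cell sum, but the 74 PP-cells held only 5 UMIs in all. α-cells exceeded PP-cells by 2.76 ± 0.81 (adjusted p = 0.029) and δ-cells by 1.54 ± 0.56 (adjusted p = 0.038).

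The SLC30A9 calls changed with the setting, although those of β-cells against δ- and PP-cells held without any single monkey. All 4 were lost when cells were thinned (adjusted p between 0.082 and 0.51) and when cells were reduced to δ-cell numbers (0.24 to 0.49). That of α- against δ-cells was lost among sums of at least 10 cells (adjusted p = 0.14). In that setting, which kept PP-cells of old female 2 only, the log2 fold changes against PP-cells were 4.30 (β-cells) and 3.50 (α-cells). That of α- against δ-cells was also lost without high-UMI cells (adjusted p = 0.054) and without the monkey as a term (0.050), and that of α- against PP-cells among cells with 1 clear hormone (0.051). The call against PP-cells for α-cells was lost without old female 1, old female 2, young male 1 or young male 4 (adjusted p = 0.055, 0.061, 0.052 and 0.055). That against δ-cells for α-cells was lost without any of 7 monkeys (old females 1 and 2, old males 2 and 4, young female 4, young males 2 and 3), with adjusted p up to 0.096. SLC30A9 UMIs were held by few cells: 87.3% of those in α-cells came from 225 of 4503 cells, and 544 α-cells with a UMI had 6.81 each on average. Between β- and α-cells the log2 fold change was 0.81 ± 0.38 (SE, 95% interval 0.05 to 1.57, adjusted p = 0.11), and it passed in DESeq2 (adjusted p = 0.015) and among sums of at least 10 cells (0.038).

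The remaining 3 ZnT genes passed in no comparison of types. SLC30A1, the plasma membrane exporter, was close to the limit of detection, at 4.47 ± 3.03 CPM (SD, n = 16) in α-cells and 3.08 ± 2.79 (n = 16) in β-cells, and 9 of 11 δ-cell sums and 4 of 6 PP-cell sums held no UMI. One δ-cell sum, 20.8 CPM in young male 1, rested on 5 UMIs of a single cell, and without that monkey α-cells exceeded δ-cells by 4.48 ± 1.20 (SE, adjusted p = 0.0058) and β-cells exceeded them by 4.04 ± 1.23 (adjusted p = 0.017), against 2.32 ± 0.96 (adjusted p = 0.072) and 1.81 ± 0.99 (adjusted p = 0.20) with it. The other 10 δ-cell sums held 1 UMI together, so the size of these fold changes depends on the prior count of the fit. Both differences also passed among cells with 1 clear hormone (adjusted p = 0.0054 and 0.041), and that of α-cells among sums of at least 10 cells (0.046). The δ-cell sums held only 6 of the 24 SLC30A1 UMIs found in all 112 δ-cells. Over all cells thinned to 10000 UMIs, a SLC30A1 UMI was found in 2.68% of δ-cells, 2.33% of α-cells and 2.56% of β-cells. These shares do not show the large differences seen in the sums. SLC30A5, which works with SLC30A6 in the early secretory pathway, averaged 41.3 ± 11.4 CPM over β-cell sums, with 32.8 ± 6.39 for α-cells, 26.8 ± 20.6 for δ-cells and, from PP-cells, 20.2 ± 26.3 (SD). Without old female 2, in which 43 of 66 PP-cell UMIs came from 1 of 33 cells, β-cells exceeded PP-cells in SLC30A5 by 2.31 ± 0.68 (adjusted p = 0.015), against 1.19 ± 0.60 (adjusted p = 0.16) with it. It also passed with thinned cells (1.82, adjusted p = 0.022).

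SLC30A7, the Golgi transporter, had type means within 1.53 times of each other. β-cells averaged 65.5 ± 18.6 CPM, PP-cells 59.3 ± 24.1, δ-cells 52.1 ± 32.6 and α-cells 42.9 ± 6.05 (SD). It was higher in β- than in α-cells in 14 of 16 monkeys, by 0.57 ± 0.25 on the log2 scale (SE, adjusted p = 0.096). That difference passed with thinned cells (adjusted p = 0.012), among sums of at least 10 cells (adjusted p = 0.048) and without old male 4 (adjusted p = 0.048).

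Among the ZIP genes other than SLC39A14, SLC39A6 and SLC39A7 passed against δ-cells. SLC39A6, a plasma membrane importer, averaged 85.9 ± 20.2 CPM over β-cell sums, with 63.8 ± 34.3 for PP-cells, 57.9 ± 11.3 for α-cells and 50.1 ± 36.2 for δ-cells (SD). β-cells exceeded δ-cells by 0.83 ± 0.27 (SE, adjusted p = 0.025), or 0.47 above the median of all genes. The call was lost in DESeq2 (adjusted p = 0.052), at δ-cell numbers (adjusted p = 0.40) and without old female 2, young females 1, 3 or 4 or young male 2 (adjusted p between 0.052 and 0.066). α-cells exceeded δ-cells by 0.28 ± 0.27 (adjusted p = 0.48), and by 0.79 (adjusted p = 0.045) without high-UMI cells. β-cells were also higher than α-cells in 15 of 16 monkeys, by 0.55 ± 0.22 (adjusted p = 0.056), and this passed in DESeq2 (adjusted p = 0.015), among sums of at least 10 cells (0.013), without the monkey as a term (0.044) and without old female 1 (0.028), old male 2 (0.049) or young female 3 (0.036).

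SLC39A7, which releases zinc from the endoplasmic reticulum, averaged 92.8 ± 69.5 CPM over PP-cell sums, with 80.8 ± 24.9 for β-cells, 72.1 ± 14.3 for α-cells and 43.5 ± 27.3 for δ-cells (SD). It exceeded the δ-cell level by 0.93 ± 0.29 in β-cells (SE, adjusted p = 0.017) and by 0.81 ± 0.29 in α-cells (adjusted p = 0.033), or 0.58 and 0.34 above the median of all genes. Among sums of at least 10 cells the β-cell difference was 0.57 (adjusted p = 0.19), and with cells reduced to δ-cell numbers it was −0.076 (adjusted p = 0.97). The α-cell difference was lost in DESeq2 (adjusted p = 0.069), among sums of at least 10 cells (0.24), at δ-cell numbers (0.70) and without old male 2, young females 2, 3 or 4 or young males 1 or 2 (0.056 to 0.11). The log2 fold change of δ- against PP-cells was −1.02 ± 0.38 (adjusted p = 0.072), which passed in DESeq2 (adjusted p = 0.029), without high-UMI cells (0.031), without the monkey as a term (0.021) and without old female 1 (0.022) or young male 3 (0.048). β- and α-cells differed by 0.12 ± 0.23 (95% interval −0.34 to 0.59, adjusted p = 0.75).

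SLC39A1 and SLC39A10, a pair of plasma membrane importers, passed in no comparison of types. SLC39A1 was higher in β-cells (41.0 ± 16.9 CPM, SD, n = 16) than in α-cells (23.4 ± 5.73, n = 16) in 16 of 16 monkeys, by 0.77 ± 0.34 on the log2 scale (SE, adjusted p = 0.097), and the difference passed among sums of at least 10 cells (adjusted p = 0.029), a setting that keeps all 16 monkeys for both types. In δ-cells it ranged from 0 through a median of 30.8 to 313 CPM, and 119 of the 120 UMIs behind the highest value, in young male 3, came from 1 of 14 cells. Without the monkey as a term the log2 fold change of α- against δ-cells was −1.37 ± 0.39 (SE, adjusted p = 0.0084), against −0.73 ± 0.45 (adjusted p = 0.25) with it. SLC39A10 averaged 50.0 ± 34.4 CPM over β-cell sums, with 32.3 ± 46.0 for δ-cells, 32.2 ± 10.8 for α-cells and 28.9 ± 33.1 for PP-cells (SD), and the interval for β- against α-cells ran from −0.48 to 1.26 on the log2 scale (adjusted p = 0.57).

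Other genes of zinc handling were read from 3 lists. Of 5 further ZnT genes only SLC30A6 was expressed enough to be tested between types, and it did not pass in any comparison. Of 9 further ZIP genes 8 were in the files and 6 were tested, and of 14 genes for zinc buffering and sensing 6 were in the files and 3 were tested (MT1A, MT1X and MTF1). Between β- and α-cells 1 of the 6 ZIP genes was lower, SLC39A3, a plasma membrane importer (67.7 ± 27.1 against 114 ± 22.8 CPM, SD, n = 16), with a log2 fold change of −0.83 ± 0.23 (SE, adjusted p = 0.0054). It was higher in α- than in δ-cells by 1.27 ± 0.29 (adjusted p = 0.0011). SLC39A8, an importer of zinc and manganese, was lower in β- than in δ-cells (−3.12 ± 0.82, adjusted p = 0.0044), where 5 of 11 δ-cell sums held no UMI, and SLC39A5 was lower in β- than in PP-cells (−2.05 ± 0.69, adjusted p = 0.033).

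MT1X, a metallothionein that buffers zinc in the cytosol, was the buffering gene that passed. It was lower in β- than in α-cells with a log2 fold change of −1.84 ± 0.41 (SE, adjusted p = 0.00041), and than in PP-cells (−1.84 ± 0.67, adjusted p = 0.049). α-cells exceeded δ-cells by 2.21 ± 0.53 (adjusted p = 0.0016), and δ-cells were lower than PP-cells (−2.22 ± 0.71, adjusted p = 0.034). MT2, a metallothionein listed under that symbol and added after the files had been seen, was far more abundant, at 457 ± 352 CPM in α-cells and 444 ± 381 CPM in β-cells (SD, n = 16). It did not differ between these types by the test (−0.16 ± 0.24, adjusted p = 0.68) and was lower in δ-cells than in β-cells (adjusted p = 0.031), α-cells (0.011) and PP-cells (0.0082).

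Over the 49 sums of the 4 types, the genes whose log2(CPM + 1) followed SLC30A8 most closely by Pearson's correlation were ENSMFAG00000039679 (r = 0.89), GGH (0.88), BTBD11 (0.88), DNER (0.87), GPD1 (0.85), SHROOM2 (0.85), ENSMFAG00000000396 (0.85) and TSPAN2 (0.84). GGH, a hydrolase of folate polyglutamates, averaged 590 CPM over β-cell sums, 339 over α-cell, 186 over PP-cell and 83.2 over δ-cell sums. TSPAN2, a tetraspanin, was at 694, 548, 217 and 227 CPM in the same order. All 8 genes had lower means in both rare types than in α- and β-cells, which follows largely from their choice by likeness to SLC30A8. Among the 10 genes SLC30A9 (r = 0.68), SLC39A14 (0.62) and SLC39A7 (0.56) were the most like SLC30A8, and SLC39A1 (0.02) the least. The points share monkeys and libraries, and the values describe these sums only.

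For the other genes the likeness was weaker. The closest genes were USF1 and ICAM3 to SLC30A1 (r = 0.70 for both), COX20 (0.83) and HP1BP3 (0.76) to SLC30A5, RIOX2 (0.71) and GMNN (0.65) to SLC30A7, and CAB39L and C3orf33 (0.80 for both) to SLC30A9. Those of the ZIP genes were STAU1 (0.74) and CASD1 (0.73) for SLC39A1, HM13 (0.80) and ZNF322 (0.76) for SLC39A6, ZNF524 (0.70) and RALY (0.69) for SLC39A7, ENSMFAG00000036095 and DERA (0.68 for both) for SLC39A10, and ARFGAP3 (0.80) and SPCS2 (0.76) for SLC39A14.

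Old and young monkeys were compared within each cell type by edgeR with sex as a term. None of the 10 genes passed in α-cells, where 0 of 12916 genes passed (0%), 886 had an unadjusted p under 0.05 and DESeq2 called 24. None of the 10 passed in β-cells, where 5 of 10628 genes passed (0.0470%) and DESeq2 called 39. The same held under every alternative setting and without any single monkey, and DESeq2 called none of the 10 in either type. Among the 10 genes the median log2 change with age was −0.02 in α-cells and 0.09 in β-cells.

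SLC30A8 was at 433 ± 57.1 CPM in young and 440 ± 95.6 in old α-cells (SD, n = 8 each). Its log2 change was 0.02 ± 0.13 (SE, 95% interval −0.26 to 0.30, adjusted p = 0.99). In β-cells it was at 496 ± 162 CPM in young and 582 ± 148 in old monkeys (SD, n = 8 each), with a log2 change of 0.22 ± 0.19 (95% interval −0.17 to 0.60, adjusted p = 0.99). The ranges of the age groups overlapped in both types, and 6 of 8 old monkeys lay above the young median in β-cells and 5 of 8 in α-cells. In α-cells a change of more than 0.30 on the log2 scale in either direction thus lay outside the interval.

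SLC39A1 and SLC39A10 had the smallest p-values for age, and neither passed the adjustment. SLC39A1 was at 26.8 ± 5.21 CPM in young and 20.0 ± 4.10 in old α-cells (SD, n = 8 each), and 0 of 8 old monkeys lay above the young median. The log2 change was −0.42 ± 0.17 (SE, unadjusted p = 0.020, adjusted p = 0.70) in α-cells and −0.46 ± 0.25 (adjusted p = 0.94) in β-cells, where young female 2, with 11 β-cells, stood apart at 98.5 CPM. SLC39A10 was at 26.5 ± 4.53 CPM in young and 37.8 ± 12.5 in old α-cells (SD, n = 8 each), a log2 change of 0.48 ± 0.17 (unadjusted p = 0.012, adjusted p = 0.69). In β-cells it was at 35.5 ± 30.9 CPM in young and 64.4 ± 33.3 in old monkeys, a change of 0.83 ± 0.39 (unadjusted p = 0.044, adjusted p = 0.88), and 8 of 8 old monkeys lay above the young median. The lowest of them, old female 2 at 22.7 CPM, was just above that median of 22.4, and the ranges overlapped (7.10 to 89.2 in young monkeys, 22.7 to 104 in old). The summed level of the 5 listed ductal markers in β-cells had a median of 185 CPM in young monkeys (66.1 to 1428) and 1708 CPM in old monkeys (383 to 5302), with CFTR at 0 in both. In α-cells it had a median of 50.6 CPM in young monkeys (23.5 to 115) and 126 CPM in old monkeys (63.4 to 330), and none of the 5 genes was at 0. The list (KRT19, KRT7, CFTR, SPP1 and MMP7) holds SPP1, which the paper counts among genes raised with age in both α- and β-cells. The sum is therefore not read as a measure of ductal cells. The part of these markers in the SLC39A10 values was not tested in either type.

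**Figure D5:**
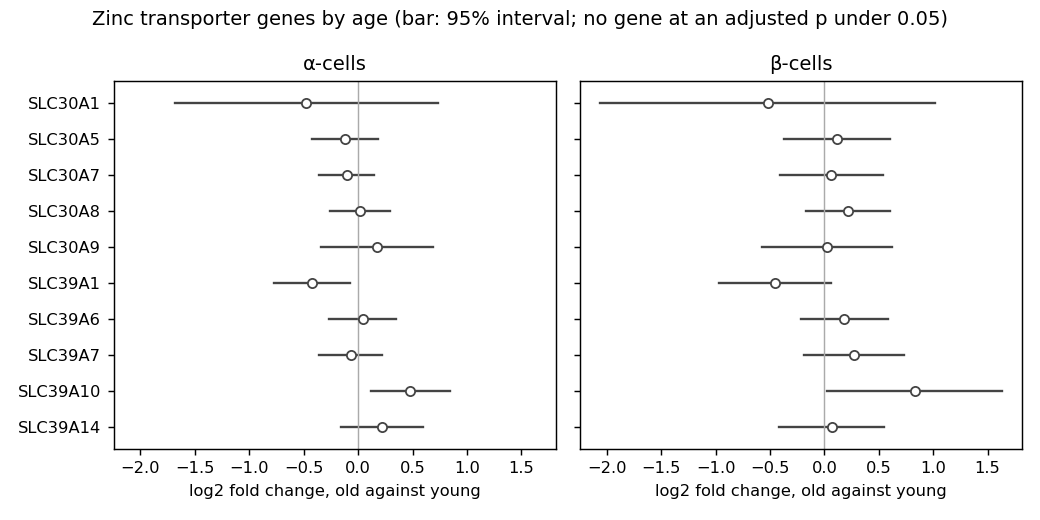
Log2 fold change of old against young monkeys (x) for the 10 genes (y) in α-cells and β-cells, with 95% intervals as bars. All points are open because none passed at an edgeR adjusted p under 0.05, and the intervals of SLC39A1 and SLC39A10 in α-cells and of SLC39A10 in β-cells do not cross 0 before adjustment.

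The other genes moved less with age, except SLC30A1, whose interval was wide. In α-cells SLC30A5, SLC30A7, SLC30A9, SLC39A6, SLC39A7 and SLC39A14 had log2 changes between −0.12 and 0.22, and in β-cells between 0.02 and 0.27. SLC39A14 was at 51.8 ± 12.2 CPM in young and 60.6 ± 20.8 in old α-cells, and at 128 ± 49.3 CPM in young and 136 ± 53.5 in old β-cells (SD, n = 8 each). SLC30A1 had a log2 change of −0.48 ± 0.58 (SE) in α-cells and −0.52 ± 0.74 in β-cells. The age effect of β-cells minus that of α-cells was tested in the same monkeys, and none of the 10 genes passed, where 0 of 13322 genes passed (0%) in edgeR, 784 had an unadjusted p under 0.05 and DESeq2 called 17. It was largest for SLC39A10, at 0.71 ± 0.46 (SE, adjusted p = 0.92), and 0.23 ± 0.18 (adjusted p = 0.95) for SLC30A8.

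The age effect of males minus that of females did not pass for any of the 10 genes, in α-cells (where 1 of 14146 genes passed, 0.00707%) or in β-cells (0 of 11693, 0%, with 495 at an unadjusted p under 0.05 and 2 called by DESeq2). SLC39A7 in α-cells had the smallest p-value, with 56.7 ± 6.56 CPM in old females, 85.5 ± 12.5 in old males, 74.7 ± 9.98 in young females and 71.4 ± 12.8 in young males (SD, n = 4 each). The ranges of old females and old males did not overlap. The difference of the age effects was 0.64 ± 0.24 on the log2 scale (SE, unadjusted p = 0.016, adjusted p = 0.87). SLC39A10 in β-cells lay between 86.5 and 104 CPM in the 4 old males and between 22.7 and 40.8 in the 4 old females, but young males ranged from 13.2 to 89.2 CPM, and the difference of the age effects was 0.43 ± 0.79 (adjusted p = 1.00).

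In the rare types age could be compared only roughly. In δ-cells (7 young and 4 old monkeys) none of the 8 genes that could be tested passed, where 0 of 6484 genes passed (0%), 209 had an unadjusted p under 0.05 and DESeq2 called 3. In PP-cells (2 young monkeys, both male, and 4 old) none of 8 passed, where 0 of 6568 passed (0%), 394 had an unadjusted p under 0.05 and DESeq2 called 1. SLC30A1 and SLC30A9 were left out for low counts in both. The interval for SLC30A8 in δ-cells ran from −0.63 to 2.71 on the log2 scale, and the change ranged from −0.35 to 1.68 over the other settings, so no direction can be given.

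Across the 16 monkeys, levels in α- and β-cells of the same monkey were related most closely for SLC39A14 (Pearson's r = 0.77, Spearman's rho = 0.56) and SLC39A1 (r = 0.57, rho = 0.64), and less for SLC30A8 (r = 0.41, rho = 0.41), as a description without a test since both types shared libraries. Old female 1 and young male 3 had the highest SLC39A14 values in both types. For SLC30A8 in α-cells, the SD on the log2 scale was 0.19 between the libraries of a monkey and 0.32 between monkeys (64 libraries of 16 monkeys), while in β-cells it was 0.62 and 0.58 (56 libraries of 15 monkeys). For the other 9 genes the SD between libraries of a monkey was 0.34 to 1.16 in α-cells and 0.68 to 1.67 in β-cells.

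Within cell types SLC30A8 varied widely from cell to cell. In β-cells the 10th, 50th and 90th percentiles were 72.5, 438 and 946 CPM, and in α-cells 54.2, 338 and 858 CPM. The 5% of cells with the most UMIs of the gene held 20.4% of its UMIs in β-cells and 22.1% in α-cells, against 30.3% to 94.1% for the other 9 genes in these types. Over the β-cells of a monkey, Spearman's correlation of SLC30A8 with INS had a median of −0.17 over 16 monkeys (−0.40 to −0.01) and that with IAPP 0.11 (−0.11 to 0.44), both as shares of the same cell's UMIs. Over the α-cells of a monkey, that with GCG had a median of −0.10 (−0.21 to 0.02) and was below 0 in 15 of 16 monkeys. These are weak relations and are given as descriptions only.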

How the data were processed

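The authors deposited UMI counts per gene and cell (modified STRT-seq), 1 file per library, unnormalized. The submitters' processing notes name CASAVA 1.8 and TopHat2 2.0.12. Cells with more than 800 genes and, with spike-ins counted, more than 10000 UMIs were kept (the study's further mapping-rate filter was not used). Spike-ins (5.41% of UMIs) were then left out, and doublets were not called. Counts were summed per monkey and type (at least 5 cells) and tested with edgeR 4.0.16 (quasi-likelihood, TMM, filterByExpr, Benjamini-Hochberg, threshold 0.05). Types were compared with the monkey as a term and ages with sex as a term, and DESeq2 1.42.0 was an alternative. The number of a monkey came from the series' design text. The 10 genes and all lists were chosen with earlier results of these data known. All 10 genes were named, and of other lists those that passed. On simulated data, 76% of 200 genes with a log2 change of 2 were recovered between β- and α-cells, 77% and 76.5% for age in α- and β-cells and 17% for age in δ-cells. Smaller changes were not simulated, and the age changes of the 10 genes in α- and β-cells were at most 0.83 in size. Intervals of shares of cells cover counting error only.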

Additional observations from a re-analysis of the deposited data

Results flagged for a closer look

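A sample stood apart from the others of its cell type and age group in 13 of 68 groups tested (19.1%), by a gap test that flags about 1 group in 20 by chance. In 6 of the 13 a single cell held more than 80% of the gene's UMIs in the sample. These were SLC30A1 in δ-cells of young male 1 (20.8 CPM, 5 of 5 UMIs), SLC30A8 in δ-cells of old female 1 (203 CPM, 137 of 138), SLC39A1 in δ-cells of young male 3 (313 CPM, 119 of 120), SLC39A14 in δ-cells of young male 3 (154 CPM, 53 of 59), and SLC39A6 in δ-cells of young male 3 (128 CPM, 41 of 49) and of old female 1 (108 CPM, 73 of 73).

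SLC30A5 in PP-cells of old female 2 stood at 47.6 CPM with 43 of 66 UMIs in 1 cell, and SLC30A8 in PP-cells of old male 4 at 181 CPM with 27 of 60 in 1 cell. SLC39A1 in β-cells of young female 2 stood at 98.5 CPM, from 59 UMIs in 11 cells.

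The others rested on many cells. SLC39A14 was high in old female 1 in α-cells (111 CPM, 180 cells) and in β-cells (253 CPM, 145 cells), and in α-cells of young male 3 (79.3 CPM, 280 cells), and SLC30A7 was high in α-cells of old male 3 (54.5 CPM, 299 cells). Without old female 1 the SLC39A14 mean was 52.6 ± 9.30 CPM (SD, n = 15) in α-cells and 124 ± 39.6 CPM (SD, n = 15) in β-cells.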

How the results depend on the processing

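The SLC30A8 calls against δ-cells and the SLC39A14 call between β- and δ-cells held under each of 8 settings and without each monkey. The SLC30A8 calls against PP-cells held without each monkey and under each setting that kept PP-cells of more than 1 monkey. With cells reduced to δ-cell numbers, the genes called were 654 (β/α), 579 (β/δ), 401 (β/PP), 606 (α/δ), 75 (α/PP) and 274 (δ/PP), the zinc transporter genes 0, 2, 1, 2 and 1 in the first 5, and SLC39A7 reversed between β- and δ-cells (−0.076). The construction of this setting, with fewer cells and monkeys, limits what it can call. With at least 10 cells per sum, 5135 (β/α), 372 (β/PP), 47 (α/PP) and 272 (δ/PP) genes passed and 3 by age in δ-cells, and 5 (β/α), 1 (β/PP), 2 (α/δ) and 1 (α/PP) of the 10. With thinned cells 685 genes passed for δ/PP, 1 by age in β-cells and 4 for the age effect of β- against α-cells, and 2 (β/α), 1 (α/PP) and 1 (δ/PP) of the 10. DESeq2 called 1359 (α/PP) and 2103 (δ/PP) genes, 24, 39, 3 and 1 by age in α-, β-, δ- and PP-cells, 8 and 2 for sex by age in α- and β-cells and 17 for type by age, and 3 (β/α) and 1 (δ/PP) of the 10. With no filter on low counts 21, 3 and 9 genes passed by age in β-, δ- and PP-cells, 1 for sex by age in β-cells and 3 for type by age. Cells with 1 clear hormone left 1 of the 10 for α/PP, leaving out high-UMI cells gave 2 for δ/PP, and a model without sex gave 1 gene by age in PP-cells. Where not stated, the cause was not tested.

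Without the monkey as a replicate block, 2269 genes passed for δ/PP, and 2 (β/α) and 1 (δ/PP) of the 10. Numbers of the monkeys within sex did not pair young with old (correlations −0.11 to 0.15), and with them as a replicate block 0, 6 and 1 genes passed by age in α-, β- and δ-cells. Neither that fit nor sums of at least 10 cells could be fitted for age in PP-cells.

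Leaving out 1 monkey at a time gave 2876 to 3440 (β/α), 2236 to 2623 (β/δ), 1857 to 2299 (β/PP), 2656 to 2921 (α/δ), 576 to 910 (α/PP) and 1106 to 1450 (δ/PP) genes, and 1 to 2, 4 to 6, 3 to 4, 2 to 4, 1 to 2 and 0 to 2 of the 10. By age it gave 0 to 0, 2 to 8, 0 to 0 and 0 to 10 genes in α-, β-, δ- and PP-cells, 1 to 2 and 0 to 1 for sex by age in α- and β-cells and 0 to 2 for type by age, and 0 to 0 of the 10. The lowest count by age in β-cells (2) came without young male 1 or young male 2 and the highest (8) without old male 4. Leaving out cells with other markers and each monkey for sex by age were chosen after seeing the data. Depth limits δ- and PP-cells most.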
